A study of Homo sapiens with 12 samples.

Results

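The miR-512, miR-515 and miR-516 assays comprised every assay of the deposited dCt table that bears one of these names, with any letter or arm. They were 6 of 501 assays: miR-512-3p, miR-512-5p, miR-515-3p, miR-516-3p, miR-516a-5p and miR-516b. All belong to C19MC, the chromosome 19 miRNA cluster, which had 32 further assays in the table. The 12 samples came from 2102Ep and NTera-2 cells, both established human embryonal carcinoma lines, after transfection with an siRNA against SOX2 (siSOX2) or a non-targeting negative control siRNA (NC). Each line had 3 siSOX2 and 3 NC samples, labelled as biological replicates. Cells were transfected for 6 h, with 15 nM siRNA and Lipofectamine 2000 in 2102Ep and with 30 nM and Lipofectamine RNAiMAX in NTera-2, and RNA was taken 72 h later, so dose, reagent and line cannot be told apart. A single SOX2 siRNA was used, and SOX2 mRNA is not measured by these arrays. The paper reports that SOX2 mRNA fell less in the line given Lipofectamine RNAiMAX than in the other. It reports no detectable SOX2 protein after knock-down in either line. The depth of the mRNA knock-down thus cannot be told apart from line either.

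C19MC is a primate-specific cluster of miRNA genes, expressed mainly in placenta and in undifferentiated embryonic cells, with little expression in most adult tissues. Its hairpins arose by repeated duplication, so that many of its mature miRNAs resemble each other, and both arms of a hairpin can yield a mature miRNA. A miRNA recognises its target mRNAs chiefly through its seed, bases 2 to 8 from the 5′ end. SOX2 is a transcription factor of the core pluripotency network in embryonic stem and embryonal carcinoma cells. 2102Ep is a nullipotent line, which resists differentiation by retinoic acid, whereas NTera-2 is pluripotent. The paper states that 2102Ep cells can still be made to differentiate by growth at low density or by silencing of SOX2 and OCT4.

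The mature sequences of the assays are shown with the seed in capitals, since the results below compare hairpin arms and miRNAs of similar sequence (RefSeq, GRCh38.p14, 6 of 6 assays matched).
hsa-miR-512-3p: aAGUGCUGucauagcugagguc
hsa-miR-512-5p: cACUCAGCcuugagggcacuuuc
hsa-miR-515-3p: gAGUGCCUucuuuuggagcguu
hsa-miR-516-3p: uGCUUCCUuucagagggu
hsa-miR-516a-5p: uUCUCGAGgaaagaagcacuuuc
hsa-miR-516b: aUCUGGAGguaagaagcacuuu

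No pair of the 6 shared a seed. The assay called miR-516-3p covers miR-516a-3p and miR-516b-3p, which have the same 18 bases and come from 4 hairpins, whereas each of the other 5 mature miRNAs comes from 2 hairpins. MiR-516b on the array is miR-516b-5p. All hairpins lie on the plus strand of chromosome 19 among 43 hairpins of the cluster in the RefSeq table. MIR512-1 (chr19:53666679-53666762) and MIR512-2 (chr19:53669157-53669254) open the cluster, and MIR515-1 (chr19:53679003-53679085) and MIR515-2 (chr19:53685009-53685091) follow. MIR516B2 (chr19:53725442-53725526) and MIR516B1 (chr19:53736845-53736934) lie further along, and MIR516A1 (chr19:53756741-53756830) and MIR516A2 (chr19:53761133-53761222) stand near its far end.

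Between 421 and 433 assays gave a value in each 2102Ep sample and between 449 and 451 in each NTera-2 sample. Of the miRNAs listed as markers of embryonal carcinoma cells (miR-302a to miR-302d, miR-367, miR-371-3p, miR-372 and miR-373), 8 of 8 were measured in each group, at a mean raw Ct of 13.9 to 26.1. A Ct is the PCR cycle at which the signal crosses its threshold, and it is higher where there is less RNA. After knock-down, 0 of these 8 passed the limma test in 2102Ep and 1, lower, in NTera-2 cells. At most 4 assays of any list of another lineage were measured. Of 2 neural miRNAs tested in 2102Ep cells, 1 fell (miR-218, log2 fold change -0.73). The other, miR-9, lay higher (1.18) without passing. In NTera-2 cells 1 of these 2 rose. Of 3 mesenchymal and muscle miRNAs tested in NTera-2 cells 1 rose, and no other marker passed. The 4 of that list tested in 2102Ep cells had log2 fold changes between -0.47 and 3.48. The part of these changes in the results below was not tested.

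MiR-512-3p, miR-516a-5p and miR-516b fell after SOX2 knock-down in 2102Ep cells, by 2.8-fold, 2.98-fold and 4.6-fold. MiR-512-5p, the other arm of the miR-512 hairpins, lay 2.97-fold lower without passing the test. MiR-515-3p and miR-516-3p did not pass, and their siSOX2 and NC samples overlapped. Levels are given as dCt, the raw Ct minus a constant of that sample and array card, so that a higher dCt means less RNA.

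MiR-512-3p and miR-516b are among the C19MC miRNAs that placental trophoblasts release in exosomes. MiR-512-3p had a dCt of 2.22, 2.36 and 2.53 in the siSOX2 samples of 2102Ep cells, against 0.72, 1.16 and 0.79 in the NC samples. All siSOX2 samples lay above all NC samples. The log2 fold change, on the scale of minus dCt, was -1.48 (standard error 0.23, 95% confidence interval -1.999 to -0.97, adjusted p = 0.0032 from limma). MiR-516a-5p had a dCt of 6.37, 6.94 and 6.54 in siSOX2 samples, against 5.01, 4.89 and 5.22 in NC samples. The groups again did not overlap, and the log2 fold change was -1.57 (standard error 0.25, 95% confidence interval -2.18 to -0.97, adjusted p = 0.011 from limma).

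MiR-516b showed the lowest log2 fold change among all 38 C19MC assays tested in this comparison. Its dCt was 8.57, 8.96 and 9.27 in siSOX2 samples, against 6.80, 6.75 and 6.64 in NC samples. The groups were separated by more than a cycle, and the log2 fold change was -2.20 (standard error 0.26, 95% confidence interval -2.83 to -1.58, adjusted p = 0.0044 from limma). MiR-512-5p had a dCt of 7.77, 7.83 and 8.66 in siSOX2 samples, against 6.64, 6.55 and 6.37 in NC samples. Its groups did not overlap either, and the SD was 0.495 cycles in siSOX2 and 0.139 in NC samples (n = 3 each). The log2 fold change of -1.57 (standard error 0.52, 95% confidence interval -2.73 to -0.41) had an adjusted p of 0.083 from limma, and of 0.019 when this line was fitted alone. The fit over both lines uses a single estimate of the spread for each assay. The SD of miR-512-5p in NTera-2 cells, 1.02 in siSOX2 and 0.77 in NC samples, thus enters the standard error given here.

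**Figure D1:**
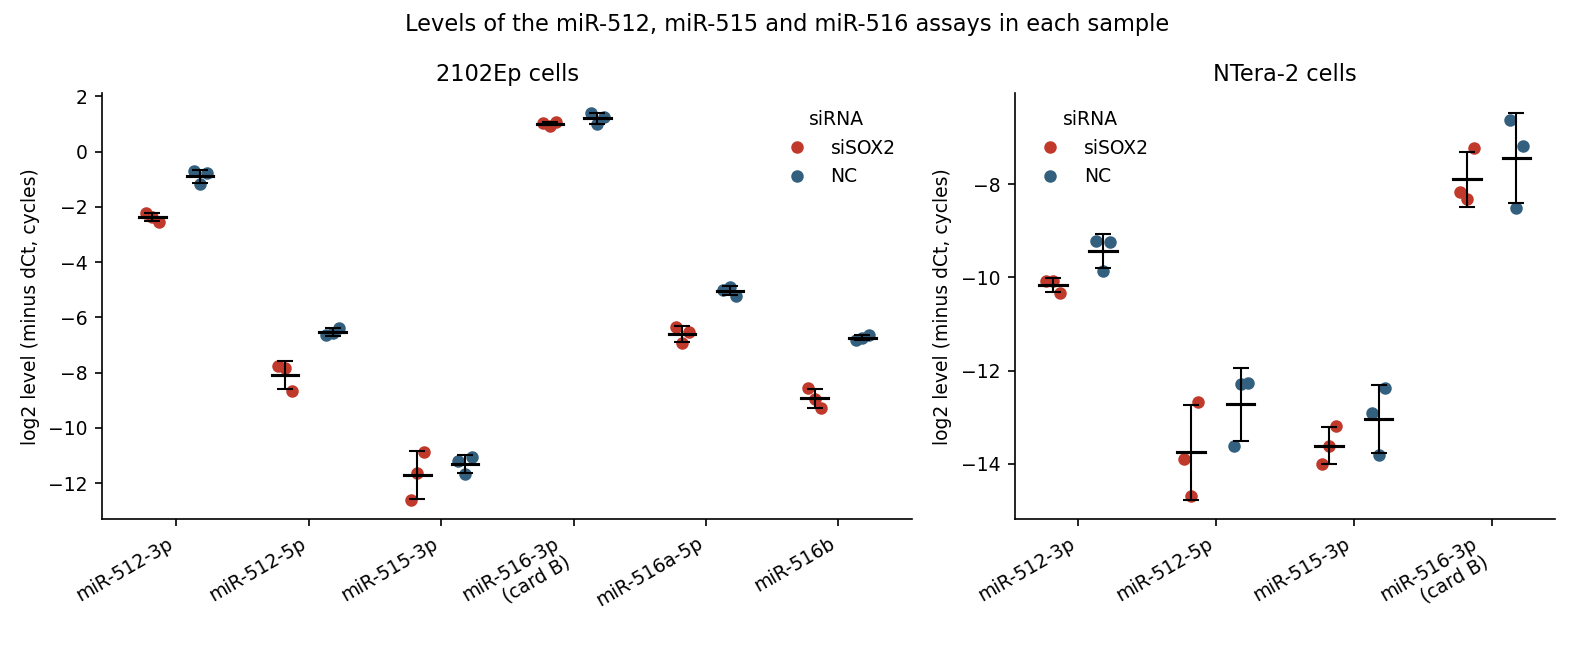
Log2 level (minus dCt, in cycles) of each assay in each sample of 2102Ep (left) and NTera-2 cells (right), with siSOX2 samples in red and NC samples in blue; black lines give the mean and SD of 3 samples. In 2102Ep cells the siSOX2 samples of miR-512-3p, miR-512-5p, miR-516a-5p and miR-516b lie below all NC samples, whereas those of miR-515-3p and miR-516-3p overlap them; miR-516a-5p and miR-516b had no value in NTera-2 cells, and the panels have different axes.

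MiR-515-3p gave the weakest signal of the 6 in 2102Ep cells, at a mean raw Ct of 29.9 in siSOX2 and 29.5 in NC samples. Its dCt was 12.6, 11.6 and 10.9 in siSOX2 samples, against 11.2, 11.7 and 11.1 in NC samples. The siSOX2 samples stood on both sides of the NC samples, and the log2 fold change was -0.38 (standard error 0.48, 95% confidence interval -1.44 to 0.69, adjusted p = 0.72 from limma). Without siSOX2 replicate 1 it was 0.08 (adjusted p = 0.96). MiR-516-3p had a mean raw Ct of 23.7 in siSOX2 and 23.3 in NC samples. It had a dCt of -1.05, -0.94 and -1.05 in siSOX2 samples, against -1.38, -0.999 and -1.25 in NC samples. The groups overlapped, and the log2 fold change was -0.20 (standard error 0.44, 95% confidence interval -1.18 to 0.79, adjusted p = 0.86 from limma).

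In all, 3 of the 6 assays fell at an adjusted p under 0.05, against 9.49% of all 432 assays tested that were called lower in 2102Ep cells. The groups did not overlap, with siSOX2 lower, in 4 of 6, against 18.1% of all assays. The median log2 fold change of the 6 was -1.53, that of the other 32 C19MC assays -1.19 and that of all 432 assays near 0 (-0.0025). Of the other C19MC assays, 19 of 32 fell and 0 rose, with log2 fold changes between -1.98 and 0.12. This count became 5 with RNU44 and RNU48 as the reference, 12 with the replicate number as a block and 9 to 14 when each sample of the line was left out in turn. Among the 38 assays of the cluster, miR-516-3p and miR-515-3p had the second and the third highest log2 fold change. In bulk samples, fewer cells that express the cluster and less RNA per cell cannot be told apart.

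**Figure D2:**
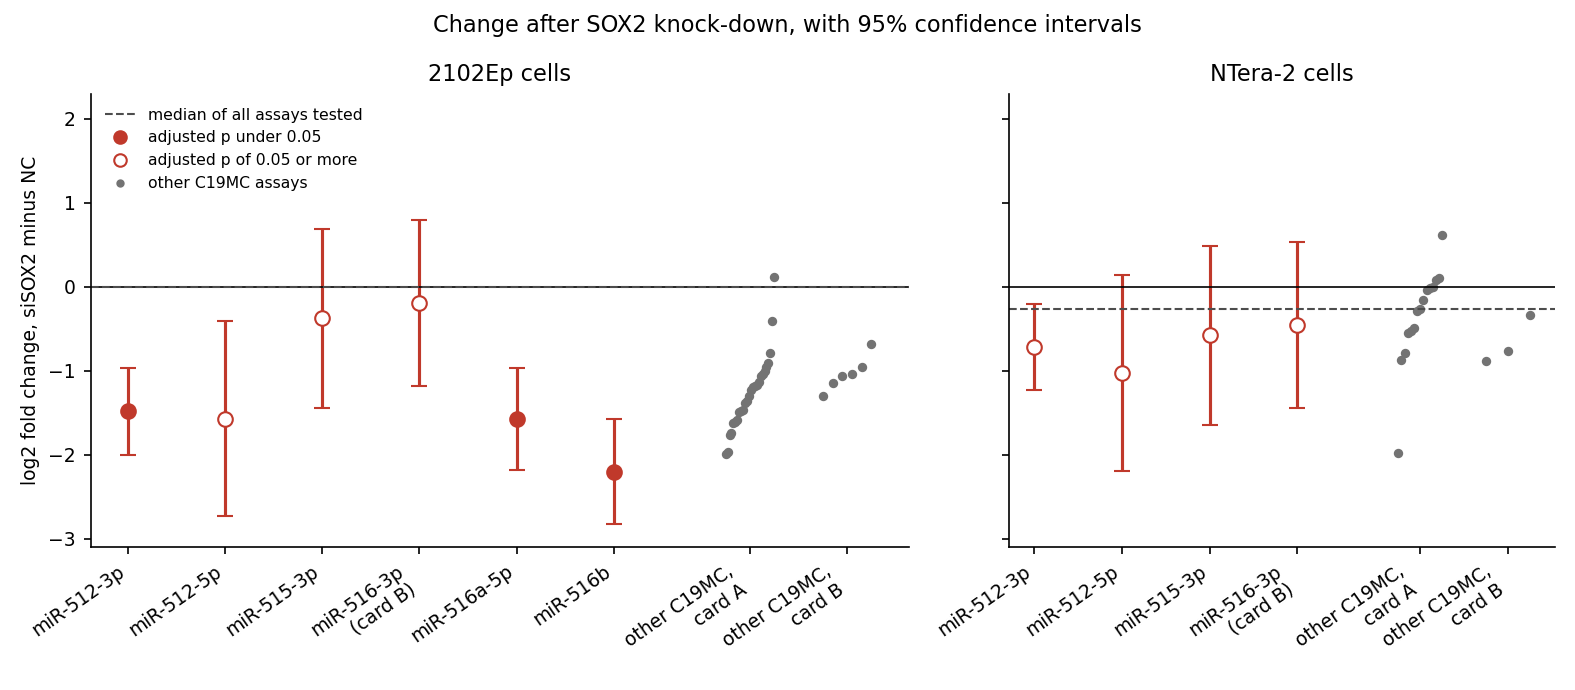
Log2 fold change, siSOX2 minus NC, with 95% confidence intervals from limma for each assay in 2102Ep (left) and NTera-2 cells (right), beside single points for the other C19MC assays of each card. In 2102Ep cells miR-512-3p, miR-516a-5p and miR-516b (filled) passed the test and lie within or below the range of the other cluster assays, from -1.98 to 0.12; the median of all assays tested (dashed) was -0.0025 for 2102Ep and -0.27 for NTera-2.

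The size of these falls depended on the reference RNA. With the small nucleolar RNAs RNU44 and RNU48 in place of the authors' constant, the median of all 2102Ep assays moved to 0.43, and calls over all assays turned to 34 higher and 13 lower, against 20 higher and 41 lower with the deposited dCt. The log2 fold change was then -1.13 for miR-512-3p (adjusted p = 0.031) and -1.85 for miR-516b (adjusted p = 0.017), while miR-516a-5p, at -1.22, no longer passed (adjusted p = 0.057). MiR-516-3p turned to 0.36 (adjusted p = 0.71). On card B, which carries miR-516-3p, RNU44 itself had a raw Ct of 17.7 ± 0.265 in siSOX2 and 16.9 ± 0.0847 in NC samples of 2102Ep cells (SD, n = 3 each), and RNU48 one of 18.8 ± 0.2305 in siSOX2 and 18.1 ± 0.0642 in NC samples. The groups overlapped for neither. The part of this shift in the value of miR-516-3p was not tested.

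**Figure D3:**
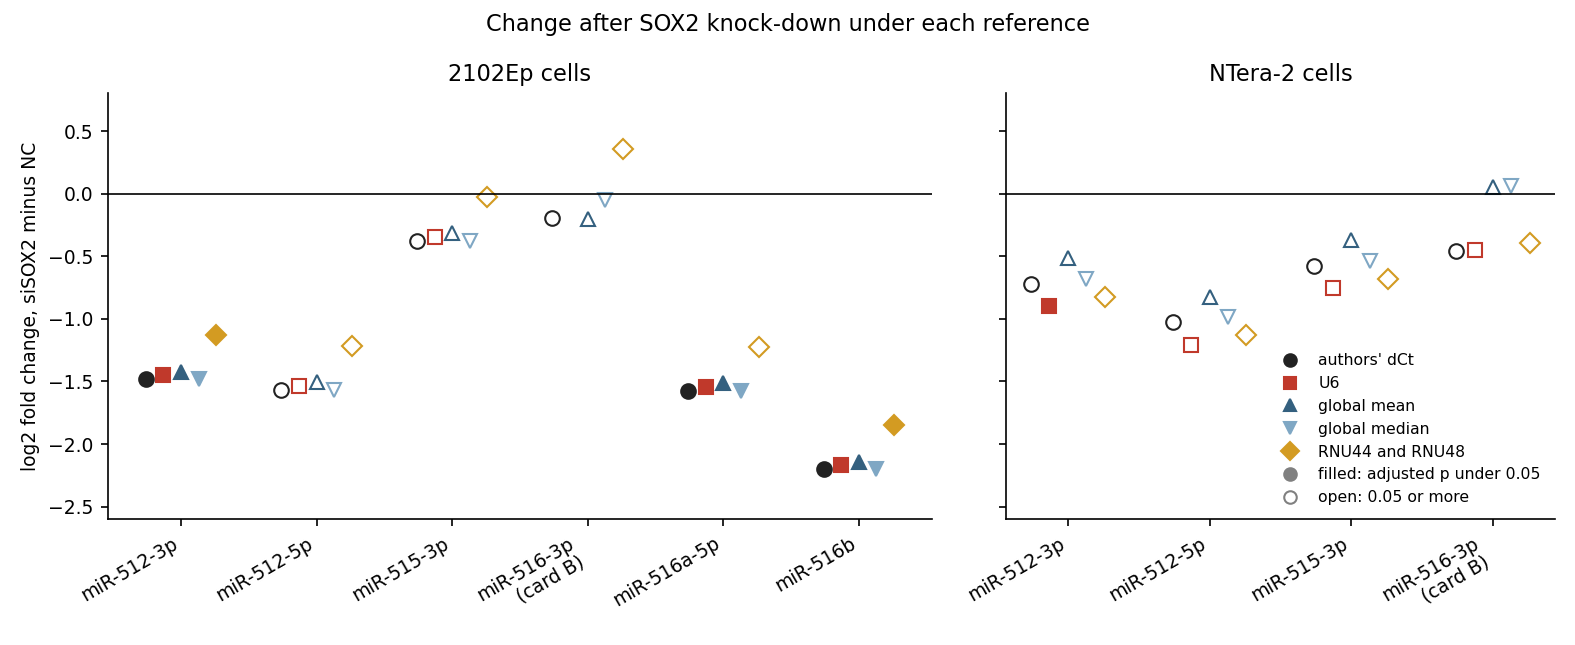
Log2 fold change, siSOX2 minus NC, of each assay under 5 references (the authors' dCt, U6, the mean or the median of all assays, and both small nucleolar RNAs) in 2102Ep (left) and NTera-2 cells (right); filled symbols have an adjusted p under 0.05. MiR-512-3p and miR-516b stay below 0 and filled under every reference in 2102Ep cells, whereas miR-516-3p lies between -0.20 and 0.36 there; U6 had no card B value in 2102Ep cells.

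Because the constant of a card cancels between assays of that card, the members were also set against each other and against the rest of the cluster without any reference RNA. An exact permutation test of 3 against 3 samples cannot give a p below 0.1. Relative to the mean of the 22 other C19MC assays of card A measured in all 2102Ep samples, miR-516b lay at -1.58, -2.16 and -2.22 cycles in siSOX2 samples, against -1.08, -0.96 and -1.01 in NC samples. It thus lay 0.97 cycles lower within its cluster after knock-down, with no overlap (exact permutation p = 0.1). For miR-516-3p the level relative to the 6 other C19MC assays of card B was 1.47, 1.14 and 2.10 in siSOX2 samples, against 1.05, 0.45 and 0.71 in NC samples. It was 0.83 cycles higher within its cluster after knock-down, also with no overlap (exact permutation p = 0.1). MiR-516b had the lowest log2 fold change of the cluster and miR-516-3p one of the highest, so the direction of both shifts was given beforehand. The share of other C19MC assays that stand apart in this way was not computed.

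MiR-512-3p, miR-512-5p and miR-516a-5p had shifts of -0.25, -0.34 and -0.34 relative to the cluster, all with overlapping groups (exact permutation p = 0.2, 0.2 and 0.4). MiR-515-3p was measured at -5.61, -4.82 and -3.81 in siSOX2 samples, against -5.48, -5.90 and -5.44 in NC samples. Its shift of 0.86 was no larger than the SD of 0.904 among siSOX2 samples, and the groups overlapped (exact permutation p = 0.3).

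**Figure D4:**
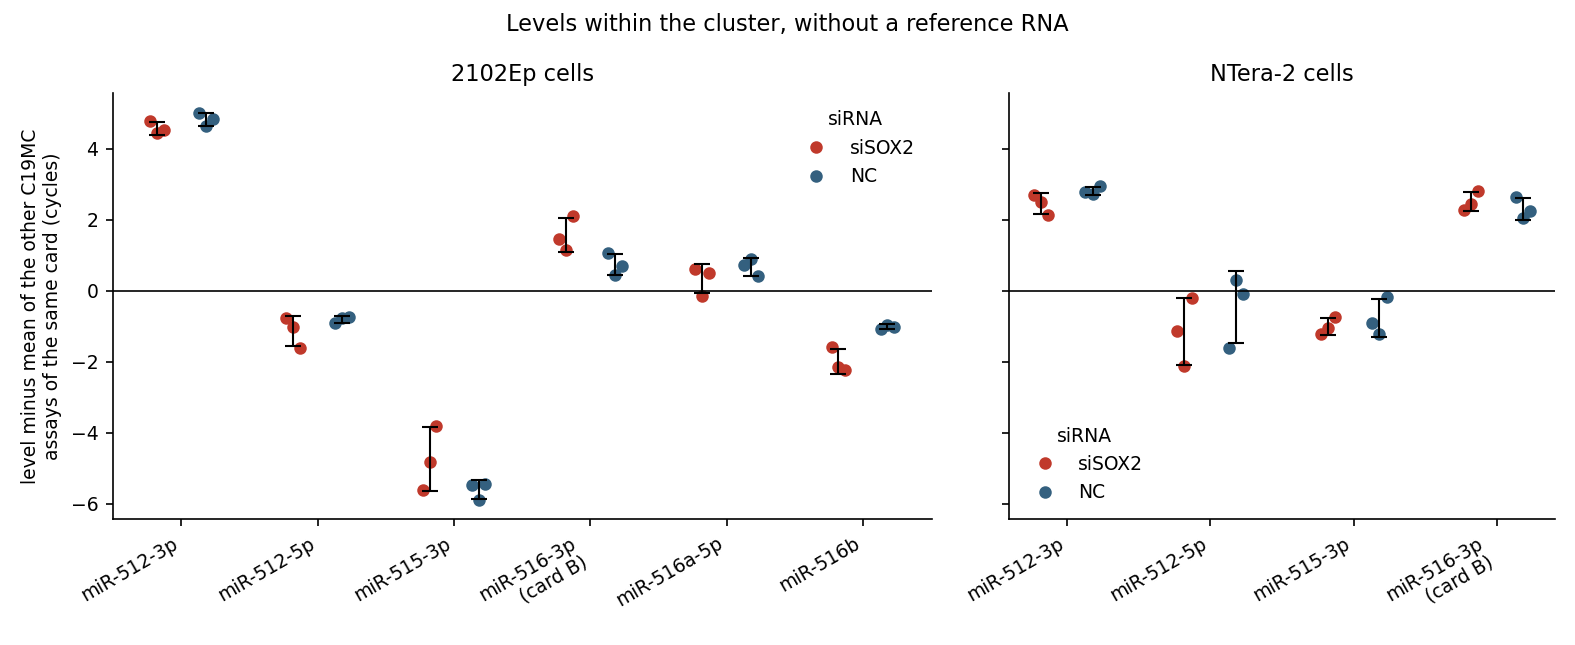
Level of each assay minus the mean level of the other C19MC assays of the same card, in cycles, for each sample of 2102Ep (left) and NTera-2 cells (right), siSOX2 in red and NC in blue, with SD bars over 3 samples. In 2102Ep cells miR-516b shifts by -0.97 and miR-516-3p by 0.83 within the cluster with no overlap of the groups, and miR-515-3p lies far below the cluster mean in 2102Ep but not in NTera-2 cells.

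MiR-516a-5p and miR-516b are alike in sequence and both fell. They are shown with their longest shared run of 12 bases in capitals.
hsa-miR-516a-5p: uucucgaggaAAGAAGCACUUUc
hsa-miR-516b-5p: aucuggagguAAGAAGCACUUU

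Read from miR-516b, with positions counted from 1 at its 5′ end, the differences are A1U, G5C and U10A, with G5C in the seed, and miR-516a-5p has a further base at its 3′ end. The Ct of miR-516b minus that of miR-516a-5p was 2.20, 2.02 and 2.73 in siSOX2 samples of 2102Ep cells, against 1.79, 1.86 and 1.42 in NC samples. The difference was 0.63 cycles larger after knock-down, with no overlap (exact permutation p = 0.1). Of 10 pairs among the 5 members on card A, 4 had groups that did not overlap, and miR-516b was in each of them. As these pairs share an assay, they are not independent. The share of such pairs among all assays of card A was not computed, so this count is a description only. Whether the assays tell these sequences apart fully was not tested.

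MiR-516-3p resembles the 3′ part of miR-520c-3p, which is also encoded in C19MC and shares its seed with the miR-302 family. The base that differs is in capitals.
hsa-miR-516a-3p: ugcuuccuuuCagagggu
hsa-miR-520c-3p: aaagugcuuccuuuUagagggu

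The 18 bases of miR-516-3p stand from base 5 on in miR-520c-3p with the single substitution C11U, counted from the 5′ end of miR-516-3p. The assay of miR-520c-3p, named for its sequence after its values were seen, is also on card B. Its dCt averaged -1.07 ± 0.191 in siSOX2 and -2.03 ± 0.0365 in NC samples of 2102Ep cells (SD, n = 3 each), a log2 fold change of -0.96 (adjusted p = 0.25 from limma), against -0.20 for miR-516-3p. These groups did not overlap. The SD of miR-520c-3p in NTera-2 cells, 0.586 in siSOX2 and 1.05 in NC samples, enters this p-value. MiR-520f-3p holds the 18 bases from base 4 on, with the same substitution. The assay named miR-520f, on card A and also named after its values were seen, had a log2 fold change of -1.46 in 2102Ep cells (adjusted p = 0.01 from limma). MiR-515-3p shares its seed with miR-519e-3p, whose hairpin MIR519E lies between the copies of MIR515.
hsa-miR-515-3p: gAGUGCCUucuuuuggagcguu
hsa-miR-519e-3p: aAGUGCCUccuuuuagaguguu

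The assay of miR-519e, named for this seed after its values were seen, fell in 2102Ep cells, with a log2 fold change of -1.48 (adjusted p = 0.0081 from limma, standard error 0.29), against -0.38 for miR-515-3p. Its dCt averaged 8.06 ± 0.352 in siSOX2 and 6.58 ± 0.103 in NC samples (SD, n = 3 each). The difference between the responses of these assays was not tested.

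MiR-512-3p carries the seed of the miR-302 and miR-372 family, moved by 1 base towards its 5′ end. These families are abundant in embryonal carcinoma cells, and the shared 7 bases are in capitals.
hsa-miR-512-3p: AAGUGCUgucauagcugagguc
hsa-miR-302a-3p: uAAGUGCUuccauguuuugguga
hsa-miR-372-3p: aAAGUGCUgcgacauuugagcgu

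These 7 bases were the seed of 12 mature human miRNAs in the RefSeq table, 5 of them from C19MC. The 8 embryonal carcinoma miRNAs had a median log2 fold change of -0.12 in 2102Ep cells, within -0.58 and 0.45, against -1.48 for miR-512-3p.

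In NTera-2 cells, 4 of the 6 assays were measured, in all 6 samples, and 0 of these 4 passed the limma test after SOX2 knock-down. Before adjustment 1 had a p of 0.05 or less, miR-512-3p, against 21.7% of all 451 assays. MiR-516a-5p and miR-516b had no value in any NTera-2 sample, like 14 of the 32 other C19MC assays and 10.9% of all assays tested in 2102Ep cells. In 2102Ep cells, these 2 assays had mean raw Cts of 24.8 and 27.1 in siSOX2 and 23.3 and 24.96 in NC samples. Whether the blanks stand for undetected RNA or for values removed by a filter is not given in the sources used here, and no fold change is given for them in NTera-2 cells.

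MiR-512-3p had a dCt of 10.07, 10.07 and 10.3 in the siSOX2 samples of NTera-2 cells, against 9.21, 9.86 and 9.23 in the NC samples. The groups did not overlap, and the log2 fold change was -0.72 (standard error 0.23, 95% confidence interval -1.23 to -0.20, adjusted p = 0.11 from limma). It passed with U6 as the reference (-0.90, adjusted p = 0.044) and without NC replicate 2 (-0.93, adjusted p = 0.038), the NC sample with the least miR-512-3p. MiR-512-5p had a dCt of 13.9, 14.7 and 12.7 in siSOX2 samples, against 13.6, 12.3 and 12.3 in NC samples. Each group spanned over a cycle and they overlapped, and the log2 fold change came to -1.03 (standard error 0.52, 95% confidence interval -2.19 to 0.14, adjusted p = 0.29 from limma). It came to -0.56 without siSOX2 replicate 2 and to -1.57 without siSOX2 replicate 3, and did not pass in either (adjusted p = 0.69 and 0.099).

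MiR-515-3p had a dCt of 14.0, 13.6 and 13.2 in siSOX2 samples, against 12.9, 13.8 and 12.4 in NC samples. The log2 fold change was -0.57 with a standard error of 0.48, between -0.97 and -0.25 with a sample left out, and the groups overlapped. For miR-516-3p the dCt was 8.17, 8.31 and 7.22 in siSOX2 samples, against 6.63, 8.51 and 7.17 in NC samples. Its log2 fold change was -0.46, with a 95% confidence interval from -1.45 to 0.53. It lay between -0.995 and -0.06 with a sample left out, and turned to 0.05 and 0.06 with the global mean and the global median as references.

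Of all 451 assays tested in NTera-2 cells, 3.77% were called lower and 5.54% in either direction. With the replicate number as a block, 7 assays were called in place of 25. The median log2 fold change was -0.65 for the 4 assays, -0.31 for the 18 other C19MC assays tested and -0.27 for all assays, so that the cluster lay close to the background shift of this line. Of the other C19MC assays 1 fell and 0 rose. With the global mean as the reference, calls over all assays were 9 higher and 6 lower, and with the global median 8 higher and 9 lower, against 8 higher and 17 lower with the deposited dCt. Relative to the 15 other C19MC assays of card A measured in all NTera-2 samples, miR-512-3p lay at 2.71, 2.51 and 2.13 in siSOX2 samples, against 2.78, 2.73 and 2.95 in NC samples. It was 0.37 cycles lower within the cluster, with no overlap (exact permutation p = 0.1).

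The difference between the knock-down effects of both lines was tested directly for the 4 assays measured in each, without adjusting for knock-down depth. None passed (0 of 4 at an adjusted p under 0.05 from limma, against 4.42% of 385 assays, and 1 of 4 before adjustment, against 22.1%). With the replicate number as a block, 1 assay of all was called in place of 17, and again 0 of the 4. The difference, 2102Ep minus NTera-2, was -0.76 for miR-512-3p (95% confidence interval -1.49 to -0.04, unadjusted p = 0.041, adjusted p = 0.22) and -0.54 for miR-512-5p (-2.19 to 1.10). It was 0.20 for miR-515-3p (-1.31 to 1.71) and 0.26 for miR-516-3p (-1.13 to 1.66). The direction of the last 3 turned in single leave-outs. MiR-512-5p came to 0.0021 without NTera-2 siSOX2 replicate 3, miR-515-3p to -0.22 without 2102Ep siSOX2 replicate 3 and -0.13 without NTera-2 NC replicate 3, and miR-516-3p to -0.14 without NTera-2 NC replicate 1. The median difference was -0.17 for these 4 assays, -0.66 for the 18 other C19MC assays and 0.27 for all assays. Of the others, 0 of 18 passed, and before adjustment 9 of 18 had a p of 0.05 or less.

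The lines were compared on raw Ct set against the mean of each card in the same sample, since the constant of the deposited dCt on card B was not traced to the same RNAs in both lines. MiR-512-3p was 29.7-fold lower in NTera-2 than in 2102Ep cells among NC samples and 15.5-fold lower among siSOX2 samples. MiR-512-5p was 5.86-fold and 3.57-fold lower, whereas miR-515-3p was 3.84-fold and 3.77-fold higher, and miR-516-3p did not pass. Of the 4 assays, 3 were called among siSOX2 and among NC samples, against 72.5% of 386 assays among NC and 75.3% of 385 assays among siSOX2 samples, so that the members' share was close to the background. Called lower were 33.4% and 34.0% of all assays among NC and siSOX2 samples, and called higher 39.1% and 41.3%.

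MiR-512-3p had log2 levels relative to the card mean of 0.55, -0.21 and 0.35 in NTera-2 NC samples, against 5.14, 5.04 and 5.19 in 2102Ep NC samples. The lines stood far apart, with a log2 difference of -4.89 (standard error 0.27, adjusted p = 2.2e-05 from limma) and of -3.96 among siSOX2 samples. MiR-512-5p differed by -2.55 among NC samples (standard error 0.38, adjusted p = 0.001 from limma) and by -1.84 among siSOX2 samples (adjusted p = 0.014). MiR-515-3p had levels of -3.14, -4.17 and -2.79 in NTera-2 NC samples, against -5.34, -5.49 and -5.09 in 2102Ep NC samples. Every NTera-2 sample lay above every 2102Ep sample, with a log2 difference of 1.94 (standard error 0.39, adjusted p = 0.0038 from limma) and of 1.91 among siSOX2 samples (adjusted p = 0.0096). This was the highest value among the 22 C19MC assays tested among siSOX2 and among NC samples, and the 18 other C19MC assays had medians of -3.68 among NC and -2.80 among siSOX2 samples, with 16 of 18 lower and 0 higher in each.

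The size of the miR-512 differences depended on the scaling, though both assays passed in all 15 alternatives. Among NC samples the log2 difference ran from -8.55 to -4.41 for miR-512-3p and from -6.20 to -2.07 for miR-512-5p. Among siSOX2 samples it ran from -7.78 to -3.52 and from -5.66 to -1.35. For miR-515-3p the direction itself depended on the scaling. With RNU44 and RNU48 as the reference it was 0.41 among NC samples (adjusted p = 0.4) and -0.25 among siSOX2 samples, where the median of all assays moved to -1.68 and -2.50, and with the deposited dCt -1.71 and -1.91, with that median at -5.35 and -5.65. Calls over all assays among NC samples were 53 higher and 230 lower with RNU44 and RNU48 and 8 higher and 363 lower with the deposited dCt, against 151 higher and 129 lower with the card mean. Among siSOX2 samples they were 24 higher and 275 lower, and 6 higher and 367 lower, against 159 higher and 131 lower. Within the cluster no reference is involved. Relative to the 14 other C19MC assays of card A measured in all 12 samples, miR-515-3p lay at -0.60, -0.93 and 0.18 in NTera-2 NC samples, against -6.18, -6.70 and -6.15 in 2102Ep NC samples. It was 5.89 cycles higher within the cluster in NTera-2 cells, and 4.96 cycles higher among siSOX2 samples, with no overlap in either (exact permutation p = 0.1 in each). MiR-515-3p had the highest line difference of the 22 C19MC assays tested, so this direction was given beforehand. The shift also holds the lower level of the other C19MC assays of card A, with median log2 differences of -3.85 among NC and -2.86 among siSOX2 samples. On the card-mean scale, 78.0% of all assays among NC and 78.7% among siSOX2 samples had no overlap between the lines. MiR-512-3p was also lower within the cluster in NTera-2 cells, with differences of -0.94 cycles among NC and -0.91 among siSOX2 samples, with no overlap (exact permutation p = 0.1 in each). Its line difference ranked 4 from the lowest of these 22, so this direction was largely given as well. The share of other C19MC assays that stand apart between the lines in this way was not computed.

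MiR-516-3p had log2 levels of 1.03, -0.62 and 0.46 in NTera-2 NC samples, against 0.86, 0.35 and 0.61 in 2102Ep NC samples. The ranges overlapped, and the log2 difference was -0.32 (standard error 0.44, 95% confidence interval -1.38 to 0.74, adjusted p = 0.54 from limma), or 0.14 without NTera-2 NC replicate 2. Among siSOX2 samples it was 0.05 (standard error 0.26), or -0.20 without NTera-2 siSOX2 replicate 3. The global median gave -0.58 there. MiR-516-3p was called with RNU44 and RNU48 (-2.63 among NC and -3.38 among siSOX2 samples). Within the cluster it lay 2.90 cycles higher in NTera-2 than in 2102Ep cells among NC samples and 2.17 among siSOX2 samples, relative to 3 other C19MC assays of card B, with no overlap (exact permutation p = 0.1 in each). These 3 had line differences of -4.34 to -2.21 among NC and -3.30 to -1.19 among siSOX2 samples, so this direction was given beforehand.

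**Figure D5:**
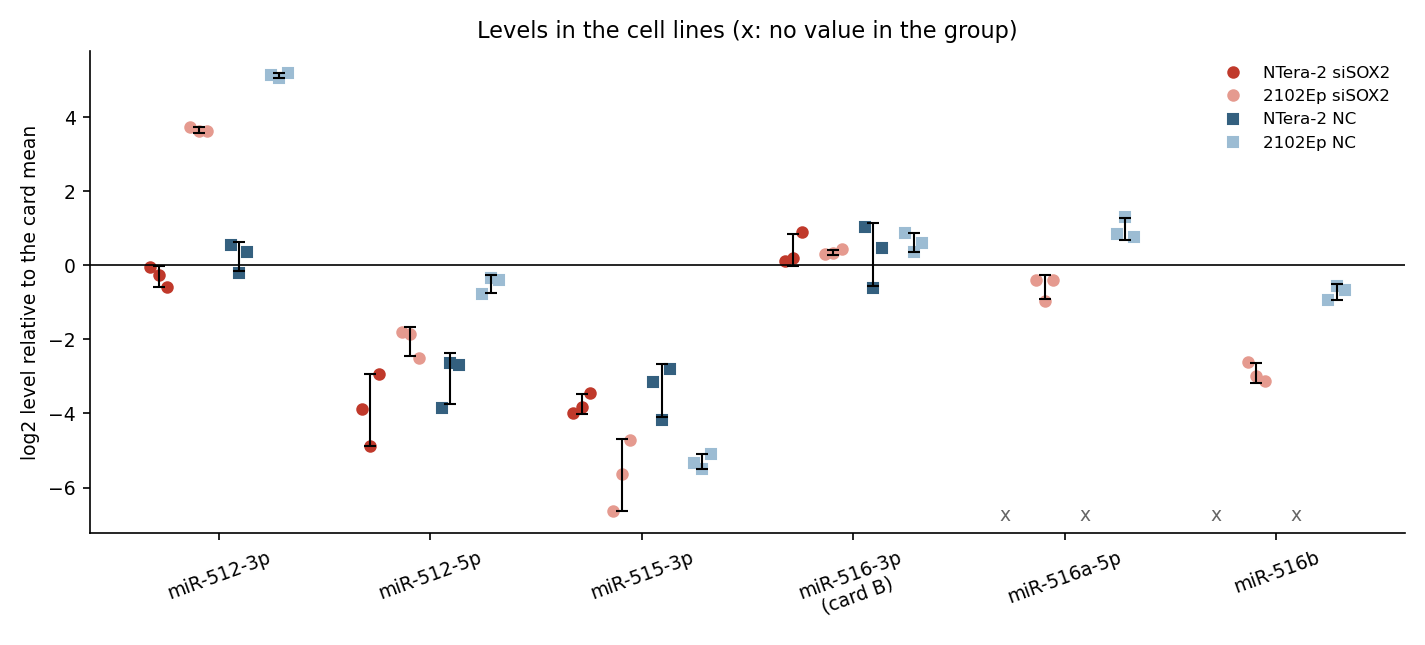
Log2 level relative to the card mean of the sample for each assay, by line and siRNA (siSOX2 samples as circles, NC samples as squares, NTera-2 left of 2102Ep), with SD bars over 3 samples. MiR-512-3p lies 4.89 lower in NTera-2 than in 2102Ep NC samples, miR-515-3p lies 1.94 higher and miR-516-3p overlaps; crosses mark groups with no value.

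The difference between the hairpin arms of miR-512 did not separate siSOX2 from NC samples, but it separated the lines. The Ct of miR-512-5p minus that of miR-512-3p, both on card A, was 5.56, 5.47 and 6.13 in siSOX2 samples of 2102Ep cells, against 5.92, 5.40 and 5.58 in NC samples. The groups overlapped (exact permutation p = 0.7), as they did in NTera-2 cells with 3.84, 4.62 and 2.34 in siSOX2 samples, against 4.40, 2.43 and 3.03 in NC samples (exact permutation p = 0.8). Between the lines there was no overlap. NTera-2 minus 2102Ep was -2.12 cycles among siSOX2 samples and -2.34 cycles among NC samples (exact permutation p = 0.1 in each).

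On 1 scale over all 12 samples, set by the assays measured in each of them, miR-512-3p was highest in 2102Ep NC (5.09), then came 2102Ep siSOX2 (3.64), then NTera-2 NC (0.18) and last NTera-2 siSOX2 (-0.31), and only the NTera-2 groups overlapped. MiR-512-5p followed the same order, at -0.54, -2.08, -3.11 and -3.91, with the same overlap. MiR-515-3p ran from NTera-2 NC (-3.41) over NTera-2 siSOX2 (-3.76) and 2102Ep NC (-5.34) to 2102Ep siSOX2 (-5.68), and only the lines were apart. All 4 groups of miR-516-3p, between 0.29 and 0.57, overlapped with their neighbours.

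The assays most like each member were sought by the smallest root mean square difference in log2 level relative to the assay's own NC mean in the same line, which is a description with no test. Over 12 samples and 366 assays, miR-512-3p was closest to miR-517c (0.239) and miR-519b-3p (0.2402), both of C19MC. The nearest to the other members measured in both lines lay outside the cluster: miR-1271 (0.383) and miR-1180 (0.442) for miR-512-5p, miR-141 (0.3701) and miR-672 (0.402) for miR-515-3p, and miR-661 (0.1897) and miR-381 (0.209) for miR-516-3p. In the 6 samples of 2102Ep cells, over 407 assays, miR-516a-5p was closest to miR-519e (0.1199) and miR-518d-5p (0.192), both of C19MC, and miR-516b to miR-26a-1# (0.2005) and, from the cluster, miR-520a# (0.2203).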

How the data were processed

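MiRNA levels were measured by the authors on TaqMan array cards A and B in 12 samples. They deposited raw Ct values and dCt values, both on the log2 scale, the dCt being the raw Ct less 1 constant for each sample and card, and a table of fold changes and p-values of their own comparisons, which was not used. On card A, miR-16 and U6 averaged to the constant, and on card B of NTera-2 cells miR-16-1#, RNU48 and U6 did. For card B of 2102Ep cells its origin is not given in the sources used here. The raw Ct of 2102Ep siSOX2 replicate 3 stood 1 measured row out of place from row 106 on, where 99.7% of 338 values met the constant within 0.02 cycles once moved, so dCt plus the constant was used.

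A value counted as measured with a dCt and a raw Ct below 40. Assays measured in at least 2 of 3 samples per arm were fitted by group means (lmFit, then eBayes, of limma 3.58.1 under R 4.3.3) and tested two-sided, with Benjamini-Hochberg adjustment over all assays. The fits were tested on simulated data. Exact permutation tests used scipy 1.17.1 and were two-sided. P-values rest on the spread between samples, with 3 samples per group. PCR after pre-amplification gives no molecule counts, so precision rests on this number. The main fit of the knock-down effects used a single estimate of the spread for each assay, pooled over its measured groups and moderated across assays by eBayes. For assays measured in both lines, the standard errors, intervals and p-values of a line thus also reflect the spread in the other line. The 6 members, the lists, the tests and the alternatives (other references, Ct filters, eBayes settings, a replicate block and left-out samples) were chosen with earlier results of these data known. Named assays were the members and the 2 most like each. Others were singled out by sequence after their values were seen: miR-519e, miR-520a, miR-520b, miR-520c-3p, miR-520D-3P, miR-520e and miR-520f. In NTera-2 cells the residuals of siSOX2 and NC samples with the same replicate number correlated by 0.118, 0.265 and 0.1595 across assays. Those of different numbers correlated by at most 0.0538, which follows in part because the residuals of a group cancel out. The labels do not say whether the numbers pair the samples. The main fits and the permutation tests did not pair them, and the replicate block, an alternative, did. Sequences came from RefSeq.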

Additional observations from a re-analysis of the deposited data

How the results depend on the processing

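In 2102Ep cells the count of fallen assays stayed between 2 and 4 under all 17 alternatives, and was 3 with each sample left out. MiR-512-3p and miR-516b passed in every alternative, with log2 fold changes of -1.62 to -1.13 and -2.38 to -1.85. MiR-516a-5p passed in 16 of 17, the exception being RNU44 and RNU48 (-1.22, adjusted p = 0.057). With a sample left out, miR-515-3p ranged from -0.7932 (without siSOX2 replicate 3) to 0.0797 (without siSOX2 replicate 1), a reversal, and miR-516-3p reversed to 0.3603 with RNU44 and RNU48. In NTera-2 cells the count of 0 became 1 with U6 and ranged from 0 to 1 with each sample left out, and miR-516-3p reversed to 0.0527 and 0.064 with the global mean and the global median. For the difference between the lines' effects, the count was 0 in all alternatives and with each sample left out. There miR-516-3p reversed to -0.2549 and -0.118 with the global mean and median. With a sample left out it ranged from -0.1403 (without NTera-2 NC replicate 1) to 0.7999, miR-515-3p from -0.2182 (without 2102Ep siSOX2 replicate 3, and -0.1302 without NTera-2 NC replicate 3) to 0.6547, and miR-512-5p from -1.0088 to 0.002133 (without NTera-2 siSOX2 replicate 3). Between NTera-2 and 2102Ep cells the count of 3 became 5 among siSOX2 and among NC samples when unmeasured values were set to raw Ct 40, which adds miR-516a-5p and miR-516b by construction (their blanks are of unstated origin), and stayed at 3 with each sample left out. Among NC samples miR-515-3p reversed to -1.7122 with the deposited dCt and miR-516-3p ranged from -0.6873 to 0.1369 (without NTera-2 NC replicate 2) with a sample left out. Among siSOX2 samples miR-515-3p reversed to -1.9112 with the deposited dCt and -0.2481 with RNU44 and RNU48, and miR-516-3p to -8.9088 with the deposited dCt, -3.3816 with RNU44 and RNU48, -0.5761 with the global median, -0.0133 in a fit over all 12 samples and from -0.1959 (without NTera-2 siSOX2 replicate 3) to 0.1932 with a sample left out. The cause of these changes was not tested.

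With the replicate number as a block, the counts of called members stayed at 3 in 2102Ep, 0 in NTera-2, 0 for the difference and 3 in both comparisons of the lines, and no call on a member changed. In 2102Ep cells, where same-numbered samples correlated by 0.158, 0.169 and 0.064 and every sample correlated best with its own number, the block gave an adjusted p of 0.023 for miR-512-3p, 0.043 for miR-516a-5p and 0.024 for miR-516b. Over all assays, the 61 calls in 2102Ep cells became 37 to 53 with a sample left out. The 25 in NTera-2 cells became 15 with the global mean, 13 with RNU44 and RNU48, 11 with the samples of the line alone, 7 with the block and 10 to 24 with a sample left out. The 17 for the difference became 34 with RNU44 and RNU48, 1 with the block and 4 to 26 with a sample left out. The 19 other C19MC assays that fell in 2102Ep cells became 5 with RNU44 and RNU48. Fits that need U6 on card B of 2102Ep cells were not run for miR-516-3p. The SD of dCt within a group of 3 limits precision, and was highest for miR-512-5p (1.02 cycles in NTera-2 siSOX2 samples, mean raw Ct 28.4) and miR-516-3p (0.967 in NTera-2 NC samples, mean raw Ct 24.1).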
